A study of Mus musculus with 2 samples.

Results

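Erythroid cells rich in hemoglobin RNA were found among the stromal cells sorted from the intestinal lamina propria of 2 mouse lines that differ in the transcription factor gene Lef1. They were chosen by their measured RNA: a cell barcode was taken as erythroid when it held at least 3000 unique molecular identifiers (UMIs, each standing for 1 captured RNA molecule), when at most 20% of them came from mitochondrial genes, and when at least 50% came together from the 4 adult hemoglobin genes Hba-a1, Hba-a2, Hbb-bs and Hbb-bt. Of 13168 barcodes that met the UMI and mitochondrial limits, 1790 met the hemoglobin limit. There were 1410 of 6599 in the ApcMin library and 380 of 6569 in the VApcMinL library.

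Both libraries came from the intestine of C57BL/6 mice aged 11 weeks that carried the ApcMin allele, under which intestinal adenomas form. The age is that of the labels, and the text of the study gives a different one in 1 place. The ApcMin library had intact Lef1 (ApcMin/+;Lef1 +/+). The VApcMinL library carried Villin-Cre and the floxed Lef1 alleles (ApcMin/+;Lef1 fl/fl), and Villin-Cre deletes in the intestinal epithelium, so the erythroid cells themselves were not the cells targeted. After digestion with Liberase TL, DAPI- Ter119- Epcam- CD45- cells were sorted, a gate meant to leave out dead cells, erythroid cells, epithelium and leukocytes, and were run on the Chromium 3' v3 system. There was 1 library per genotype and the number of mice behind each was not given in the sources used here. No difference between the genotypes could therefore be tested, and every interval below is a 95% exact interval that covers counting error alone.

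Hemoglobin is a tetramer of alpha and beta chains, each holding a heme. In mammals the erythroblasts of bone marrow and spleen make it while they condense and then expel the nucleus, and the reticulocytes that result keep translating a store of mRNA, dominated by globin, until their ribosomes and mitochondria have been cleared. Ter119, the antibody used in the gate, binds the surface of late erythroblasts and red cells. Malat1 RNA stays in the nucleus, so it marks cells that still have one.

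The 4 genes that chose the cells lie in 2 clusters, alpha on chromosome 11 (Hba-a1 at chr11:32283511-32284465 and Hba-a2 at chr11:32296489-32297298, both on the plus strand) and beta on chromosome 7 (Hbb-bs at chr7:103826534-103828096 and Hbb-bt at chr7:103812524-103813996, both on the minus strand, GRCm38 coordinates of GENCODE vM21). The fifth marker, Alas2, lies at chrX:150547375-150570638 and encodes the rate-limiting enzyme of erythroid heme synthesis. The 250 bases before their RefSeq start sites (build GRCm38.p6) are shown because these 5 genes supplied most of the RNA read from the cells, with capitals marking matches on either strand to 4 motifs of erythroid promoters. These are GATAA for the binding site of GATA factors, CACCC for that of Klf factors, CCAAT for the box of that name and ATATAA for the box where the general transcription machinery binds.
Hba-a1 (chr11:32283422-32283671, plus strand): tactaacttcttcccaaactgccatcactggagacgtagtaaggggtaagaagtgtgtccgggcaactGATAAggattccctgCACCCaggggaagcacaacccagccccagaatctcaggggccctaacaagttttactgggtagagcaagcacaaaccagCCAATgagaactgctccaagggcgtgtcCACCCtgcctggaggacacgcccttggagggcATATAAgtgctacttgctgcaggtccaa
Hbb-bs (chr7:103827929-103828178, minus strand): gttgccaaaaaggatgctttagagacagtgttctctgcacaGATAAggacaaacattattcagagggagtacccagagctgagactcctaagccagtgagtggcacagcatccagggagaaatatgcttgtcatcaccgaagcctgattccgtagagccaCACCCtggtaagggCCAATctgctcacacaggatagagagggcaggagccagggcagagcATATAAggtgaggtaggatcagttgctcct
Hbb-bt (chr7:103813924-103814173, minus strand): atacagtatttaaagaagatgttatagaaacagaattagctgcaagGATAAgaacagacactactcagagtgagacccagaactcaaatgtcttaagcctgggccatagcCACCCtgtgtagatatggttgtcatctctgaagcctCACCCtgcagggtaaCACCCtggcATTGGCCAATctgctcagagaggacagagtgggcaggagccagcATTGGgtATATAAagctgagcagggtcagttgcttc
Alas2 (chrX:150547167-150547416, plus strand): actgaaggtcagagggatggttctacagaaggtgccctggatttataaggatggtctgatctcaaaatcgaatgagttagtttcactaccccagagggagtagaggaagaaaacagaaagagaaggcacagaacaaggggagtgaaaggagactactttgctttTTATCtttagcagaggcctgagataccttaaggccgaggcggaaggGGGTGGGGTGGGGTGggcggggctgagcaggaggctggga
The 4 globin windows each held GATAA once and ATATAA once, the latter beginning between positions -31 and -28 from the start site. They held CACCC 1 to 3 times and CCAAT 1 to 3 times, and in Hbb-bt a CCAAT on each strand stood side by side. The Alas2 window held GATAA once and CACCC 3 times, all on the minus strand, with no CCAAT and no ATATAA. Over 32851 promoter windows of the same length in the table, 22.6% held GATAA, 52.0% CACCC, 33.9% CCAAT and 9.10% ATATAA. The window of Hba-a2, not printed, aligned with that of Hba-a1 at 247 of 253 positions. A match here is a description of the letters and not a shown binding site.

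The copies within each cluster limit what single genes can tell. The coding sequences of Hba-a1 and Hba-a2 were the same at 428 of 429 bases, and the stretch after the stop codon, where 3' reads fall, was the same at all 74 bases compared. Reads of these genes cannot be assigned with certainty, so the alpha genes are given as a sum. Hbb-bs and Hbb-bt shared 443 of 444 coding bases but 70.7% of the aligned positions after the stop codon.

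The hemoglobin share split the barcodes into groups with few between them. In ApcMin 5017 of the barcodes had under 1% hemoglobin and 1324 had at least 90%, while in VApcMinL these were 6115 and 281. Close to the limit, 18 ApcMin and 3 VApcMinL barcodes lay between 45% and 50% and were left out, and 10 and 2 lay between 50% and 55% and were taken in. As a share of all barcodes that met the other limits, the erythroid cells made up 21.4% in ApcMin (interval 20.4 to 22.4) and 5.79% in VApcMinL (5.23 to 6.38). The VApcMinL share was 0.271 times that of ApcMin (0.241 to 0.303). With UMI limits of 500, 1000 and 6000 the ratio was 0.287, 0.284 and 0.249. The share can also be set by the Ter119 gate and by the blood left in the tissue, and the part of these was not tested.

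**Figure D1:**
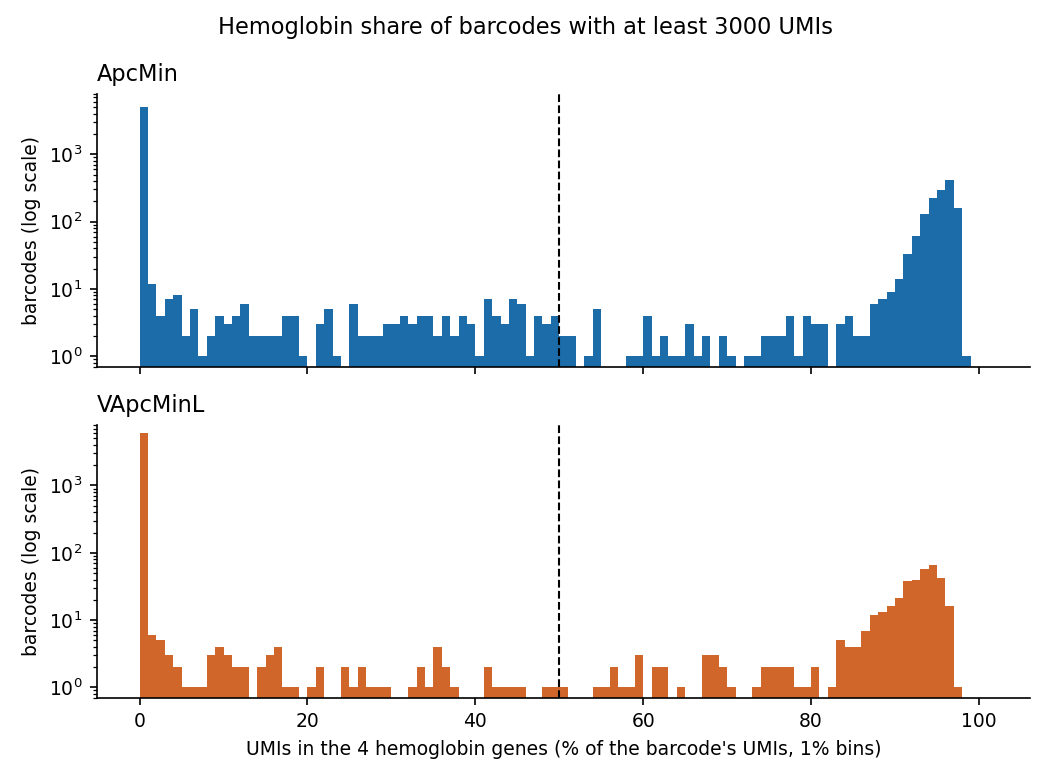
The number of barcodes (log scale) in each 1% bin of hemoglobin share, for barcodes with at least 3000 UMIs and at most 20% mitochondrial UMIs in the 2 libraries, with the 50% limit as a dashed line. Most barcodes sit under 1% and most of the rest above 90%, with the peak of ApcMin at a higher share than that of VApcMinL.

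The cells were shallow outside hemoglobin. The median ApcMin cell had 9504 UMIs (range 3006 to 26757), of which 369.5 were not hemoglobin, and the median VApcMinL cell had 7380 UMIs (3027 to 25141), of which 506.5 were not. A median of 143 genes was detected per cell in ApcMin and 232.5 in VApcMinL, against 3327 and 2951 in the other barcodes of the same libraries, whose median depths were 11309 and 9233 UMIs. The hemoglobin share had a median of 95.6% in ApcMin (quartiles 94.1 and 96.5) and 92.8% in VApcMinL (89.9 and 94.4). Over the summed UMIs, 6.26% of ApcMin and 10.1% of VApcMinL erythroid RNA lay outside the 4 genes. In all, the erythroid cells held 14.1% of the ApcMin library's UMIs and 3.003% of the VApcMinL library's.

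A minority of the cells carried much of that remaining RNA. In ApcMin 86 cells had under 90% hemoglobin and held 32.5% of all non-hemoglobin UMIs of the erythroid cells, and in VApcMinL 99 such cells held 53.6%. The cells of at least 90% made up 93.9% of the ApcMin cells and 74.0% of the VApcMinL cells. Levels below are therefore given for all the erythroid cells and, where it matters, for those with at least 90% hemoglobin.

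**Figure D2:**
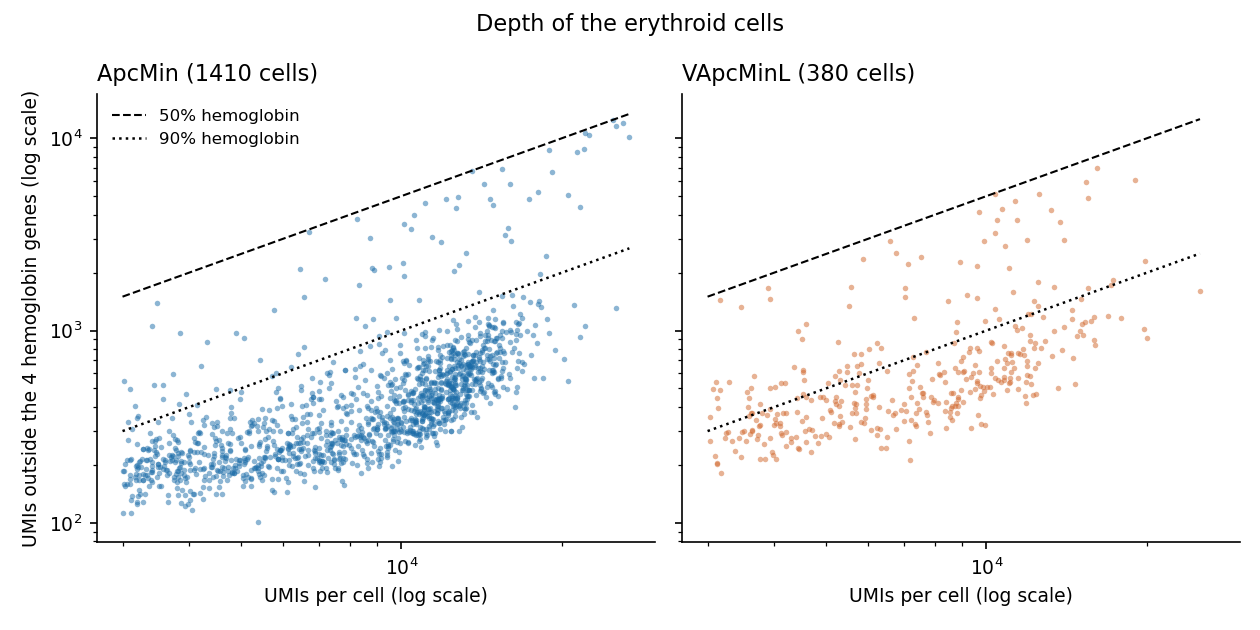
Each point is an erythroid cell, placed by its UMIs (log scale) and by its UMIs outside the 4 hemoglobin genes (log scale), with lines at hemoglobin shares of 50% and 90%. Most of the 1410 ApcMin cells lie below the 90% line, and a scatter of cells in both libraries reaches up to 12382 non-hemoglobin UMIs in ApcMin and 6990 in VApcMinL.

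More of the counted hemoglobin UMIs came from beta genes than from alpha genes. The alpha copies were the same at all 74 bases compared after the stop codon. Whether reads that fit both copies were counted was not tested, so the balance of the chains cannot be read from these shares. Beta genes gave 61.3% of the hemoglobin UMIs in ApcMin and 65.1% in VApcMinL, with per-cell medians of 60.8% (range 28.4 to 78.8) and 65.3% (41.4 to 76.2). Hbb-bs was the largest source, with 51.4% and 54.4%. The share of Hbb-bt had a median of 9.55% in ApcMin and a range from 0.177% to 18.4%, and 10.7% in VApcMinL with a range from 0.710% to 16.8%. Every cell had UMIs of all 4 genes. The free hemoglobin RNA in empty droplets was 66.1% beta in ApcMin and 67.7% in VApcMinL.

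Embryonic globins were next to absent. Hba-x and Hbb-bh1 had no UMI in either library, Hbb-y had 3 and Hbb-bh2 had 1 in ApcMin and none in VApcMinL. Theta globin, a minor member of the alpha cluster, was present: Hbq1b had 219 UMIs in ApcMin and 112 in VApcMinL, in 12.8% and 21.3% of the cells, against 0.212% and 0.145% of the other barcodes. Hbq1a had 182 and 26 UMIs.

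The empty droplets give the measure of free RNA. They were the barcodes ranked 45000 to 90000 by UMIs, with medians of 95 UMIs in ApcMin and 142 in VApcMinL, of which hemoglobin made up 7.07% and 2.06%. Levels are in CPM, counts per 1000000 non-hemoglobin UMIs, and since the 3' method counts each molecule once, they need no correction for gene length. The immunoglobulin genes Igkc and Igha, which plasma cells express, were among the 10 most abundant non-hemoglobin transcripts of the erythroid cells. Igkc stood at 34499 CPM in ApcMin and 48840 in VApcMinL. These levels were 0.365 and 0.485 times those of the empty droplets, and the other 4 plasma cell markers also lay below the empty droplets. With the barcodes of 10 to 100 UMIs taken as empty droplets in their place, Igkc in VApcMinL stood at 1.65 times them. The most abundant transcript, Gm42418, overlaps a ribosomal RNA gene, so its reads may be ribosomal RNA. It had 114733 and 52789 CPM, 0.384 and 0.493 times the empty droplets, and 2.02 times in VApcMinL against that other set.

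Against that measure, the erythroid transcripts stood far above the free RNA. Of 1551 genes with a mean of at least 50 CPM over cells and empty droplets in both libraries, 234 or 15.1% were at least 2-fold above the empty droplets in both, and 89 or 5.74% were at or below 0.5 times. Of the 114 erythroid genes listed, 59 passed the level filter and 44 of these were at least 2-fold above. The filter averages cells and empty droplets, so a gene scarce in the empty droplets passes only where its level in the cells is high. Of the 234 genes above, 157 had under 50 CPM in the empty droplets of at least 1 library, as had 31 of the 44 erythroid genes, so for these the call follows largely from the filter. The median over all 1551 genes was 0.783 times the empty droplets in ApcMin and 0.758 in VApcMinL. The 114 listed erythroid genes took 20.1% of the non-hemoglobin UMIs in ApcMin (interval 20.0 to 20.2) and 15.8% in VApcMinL (15.7 to 16.0). They took 0.901% and 1.58% of those in empty droplets and 1.67% and 1.90% in the other barcodes. In cells of at least 90% hemoglobin the shares were 26.9% and 22.2%. The 25 genes restricted to the erythroid line took 3.12% and 2.63%, against 0.0159% and 0.0107% in the empty droplets. The cells were chosen by measured values of the same RNA, so these counts describe the cells and test nothing.

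Heme synthesis led the list. Alas2 was the most abundant listed erythroid gene, with 25792 CPM in ApcMin and 17833 CPM in VApcMinL, 237 times (interval 214 to 263) and 457 times (397 to 530) the empty droplets. It was found in 98.8% of ApcMin and 99.7% of VApcMinL cells, with medians of 14 and 13 UMIs a cell, against 4.55% and 1.92% of the other barcodes. Fech, which puts the iron into heme, had 4673 and 2553 CPM, 140 and 110 times the empty droplets, and Slc25a39, a mitochondrial carrier needed for heme synthesis, had 3211 and 2077 CPM. Other enzymes between Alas2 and Fech were scarcer. Urod had 209 and 600 CPM, Cpox 46.2 and 137 CPM, Ppox 18.2 and 108 CPM, and Alad 21.9 and 78.3 CPM. Of 12 heme genes 4 passed the level filter, and all 4 had under 50 CPM in the empty droplets of at least 1 library, so no count of those above is given weight here.

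Iron import and storage genes split. Slc25a37, the mitoferrin that carries iron into mitochondria, had 5797 CPM in ApcMin and 2984 in VApcMinL, 135 and 67.6 times the empty droplets. Ftl1, the ferritin light chain, had 25209 and 15375 CPM, 25.2 and 9.91 times. Fth1, the heavy chain, stood at 9365 and 6613 CPM, 4.54 and 1.48 times. Tfrc, the transferrin receptor by which erythroblasts take up iron, had 25 UMIs in 22 of the 1410 ApcMin cells and 105 UMIs in 37 of the 380 VApcMinL cells, so most cells of both libraries had none. In the iron list 5 of 7 genes that passed the filter were at least 2-fold above the empty droplets, beside 15.1% of all genes tested. Among the 5 was Ncoa4, the receptor that delivers ferritin for breakdown, at 53.0 and 30.4 times.

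Membrane and surface genes differed in how many cells held them. The anion exchanger gene Slc4a1 had a UMI in 29.65% of ApcMin cells and 38.2% of VApcMinL cells, against 0.636% and 0.501% of the other barcodes. After every barcode was thinned to 3000 UMIs these shares were 13.7% and 24.5% against 0.116% and 0.194%. Hemoglobin UMIs counted towards the 3000, so the erythroid cells kept far fewer non-hemoglobin UMIs than the other barcodes. Its level was 1355 and 2191 CPM, 175 and 165 times the empty droplets. Epb41, which encodes a protein of the membrane skeleton, was found in 91.6% and 85.8% of cells, at 9160 and 5084 CPM. Of 10 membrane genes that passed the filter, 7 were at least 2-fold above the empty droplets, beside 15.1% of all genes tested. All 7 had under 50 CPM in the empty droplets of at least 1 library.

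Of 17 genes of protein and organelle clearance that passed the filter, 14 were at least 2-fold above the empty droplets, beside 15.1% of all genes tested. Over all erythroid lists, 31 of the 44 genes above had under 50 CPM in the empty droplets of at least 1 library. The counts of these lists thus follow in part from the filter. Ube2l6, a conjugating enzyme of the ubiquitin-like protein ISG15, reached 10324 CPM in ApcMin and 5325 in VApcMinL, 280 and 217 times the empty droplets. Ube2o, a ubiquitin enzyme that strips reticulocytes of unneeded proteins, stood at 192 and 190 times. Bnip3l, the receptor for the removal of mitochondria, stood at 69.2 and 36.4 times, the ubiquitin ligase gene Mkrn1 at 145.5 and 61.3 times and the autophagy genes Gabarapl2 and Map1lc3b at 59.1 and 29.98 and at 19.1 and 13.5 times. Ubb, which encodes ubiquitin, had 8897 and 15349 CPM, 13.3 and 11.2 times.

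Red cell metabolism and oxidant defence had 10 of the 16 genes that passed the filter above, beside 15.1% of all genes tested. Car2, a carbonic anhydrase, stood at 78.3 times the empty droplets in ApcMin and 56.1 in VApcMinL, the peroxiredoxin gene Prdx2 at 39.1 and 29.2, and the glutathione peroxidase gene Gpx1 at 33.3 and 27.3. The common glycolytic genes Gapdh, Aldoa, Ldha and Pgk1 lay at or below 0.6485 times in both libraries. Bpgm, whose product makes the bisphosphoglycerate that tunes oxygen binding by hemoglobin, was among the 20 genes with the highest ratio, with 13341 and 7402 CPM at 213 and 208 times. Of the translation genes that passed, 5 of 8 were above, also beside 15.1% of all genes tested. Oaz1 stood at 30.4 and 15.9 times and the poly(A) binding protein gene Pabpc1 at 12.35 and 8.01 times, while Eef1a1 lay at 0.740 and 0.702 times.

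The 20 genes with the highest ratio to the empty droplets held further members of these lists and genes outside them. Tspo2, an erythroid membrane protein, stood at 225 and 475 times. Trim10 stood at 207 and 183.5 times and Apol11b at 226.5 and 266 times. The interferon-responsive genes Isg20 and Rsad2 stood at 125 and 146 and at 107 and 116 times, with 4713 and 3838 and with 4315.5 and 1973 CPM. Fam46c, at 95.5 and 83.3 times, and Fam220a, at 177 and 106 times, were found in 87.5% and 86.8% and in 86.2% and 75.5% of cells. Rec114 stood at 107 and 87.9 times and Gm32051, a gene known by its model number, at 130 and 296.5 times. Of the set, Apol11b, Isg20, Rsad2, Fam46c, Rec114 and Gm32051 stood in none of the gene lists.

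**Figure D3:**
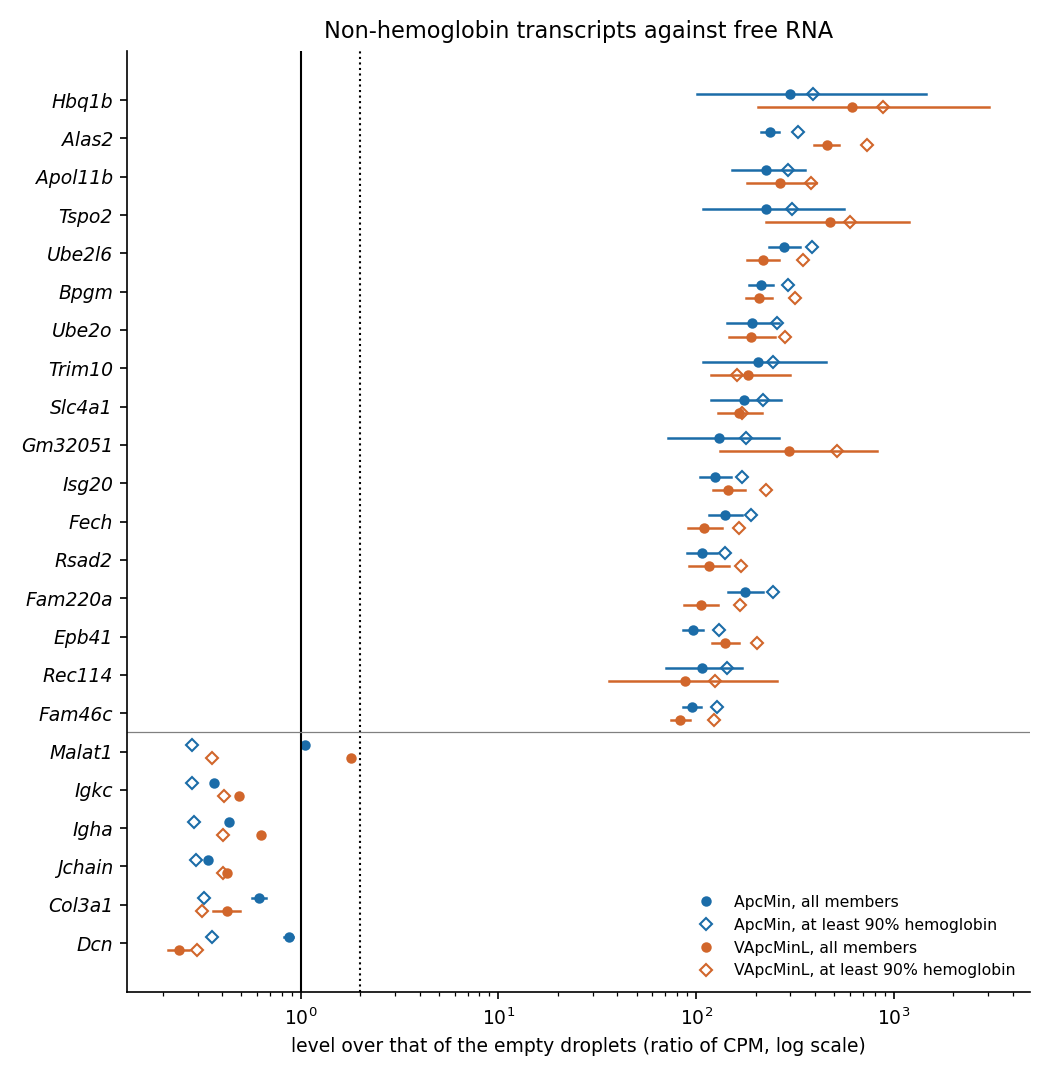
The level in erythroid cells over that in empty droplets of the same library (ratio of CPM, log scale) for genes among the 20 with the highest ratio and, under the line, 6 transcripts of other cells or of the nucleus, with 95% counting intervals as bars. Every one of these genes lies above 50 times in both libraries, while Igkc, Igha, Jchain, Col3a1 and Dcn lie below 1 and Malat1 goes from 1.05 and 1.78 in all cells to 0.282 and 0.354 in cells of at least 90% hemoglobin (open diamonds).

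The main lineage transcription factors were hardly seen. Gata1 had 3 UMIs in each library and Klf1 had 2 in ApcMin and 5 in VApcMinL. Gfi1b had none in either, with upper interval limits of 4.48 CPM in ApcMin and 12.03 CPM in VApcMinL. Of 14 listed factors 4 passed the level filter. Of these 4, 3 were at least 2-fold above the empty droplets in both libraries, beside 15.1% of all genes tested. E2f2, which acts in the last divisions of erythroblasts, had 446 and 541 CPM, 55.5 and 76.0 times the empty droplets, Lmo2 stood at 6.71 and 7.37 times and Foxo3 at 5.895 and 4.23 times. Of the genes set beside the 4 globins to check the erythroid label, Alas2, Slc4a1 and Bpgm were thus far above the free RNA, and Gata1 and Klf1 were near 0. None of the 3 early progenitor genes that passed the filter was 2-fold above, and Kit had 5 UMIs in ApcMin and 1 in VApcMinL.

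Of 18 cell cycle genes 4 passed the filter, 2 of them at least 2-fold above the empty droplets and 2 at or below 0.5 times. Over all genes tested, 15.1% were above and 5.74% at or below 0.5 times. Ube2c, a ubiquitin enzyme of mitosis, stood at 62.5 times the empty droplets in ApcMin and 32.1 times in VApcMinL and was found in 29.0% and 31.8% of cells. Mki67 stood at 2.12 and 3.19 times, with a UMI in 2.91% and 6.05% of cells against 3.26% and 2.47% of the other barcodes, and after thinning to 3000 UMIs in 1.14% and 2.37% against 1.54% and 1.03%. The thinning does not match the depth outside hemoglobin, which stays far lower in the erythroid cells. Top2a had 16 and 8 UMIs, Ccnb1 2 and 1, and Cdk1 2 and 2. Hmgb2 and Tubb5 lay at 0.284 and 0.475 and at 0.430 and 0.491 times.

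Nuclear RNA depended on the hemoglobin share. Over all erythroid cells Malat1 stood at 1.05 times the empty droplets in ApcMin and 1.78 times in VApcMinL. In the cells of at least 90% hemoglobin it stood at 0.282 and 0.354 times, beside 0.280 and 0.411 times for Igkc and 0.323 and 0.315 times for the collagen gene Col3a1 in the same cells. Neat1 lay at 0.354 and 0.265 times there. In the cells of 50% to 80% hemoglobin Malat1 reached 38850 CPM in ApcMin and 58325 in VApcMinL.

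The cells of low hemoglobin share differed in more than Malat1. The 47 ApcMin cells of 50% to 80% hemoglobin had a median of 4315 non-hemoglobin UMIs and 1386 genes, and the 35 VApcMinL cells 2909 UMIs and 888 genes. In them the summed markers of endothelial cells stood at 3.51 and 4.77 times the empty droplets and those of B cells at 2.225 and 1.94 times. Fibroblast markers stood at 1.78 times in ApcMin and at 0.310 times in VApcMinL, and glial markers at 0 and 7.65 times. Markers of T or innate lymphoid cells stood at 0 and 2.78 times and the leukocyte gene Ptprc at 1.06 and 2.09 times. The remaining lists lay below the empty droplets in both libraries. In the cells of 80% to 90% hemoglobin, myeloid markers stood at 2.62 and 1.36 times. In the cells of at least 90% hemoglobin the 13 marker lists of other cell types, 59 genes in all, had summed levels of 0.0947 to 0.424 times the empty droplets in ApcMin and 0 to 0.525 times in VApcMinL. Over all erythroid cells 8 of the 59 markers were at 0 in ApcMin and 6 in VApcMinL. In ApcMin these were Kcna1, S100b and Sox10 of glia, Camp, Retnlg and S100a8 of neutrophils and Gp9 and Ppbp of platelets. In VApcMinL they were Cd3d, Cd3e, Cd3g and Trac of T cells and Camp and S100a9 of neutrophils. No doublet caller was run, and the part of droplets that held an erythroid and another cell was not tested.

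Within the range above 90% the remaining RNA changed with the hemoglobin share. In ApcMin, the cells of 90% to 95%, 95% to 97% and at least 97% numbered 461, 703 and 160, with medians of 542, 348 and 252.5 non-hemoglobin UMIs. Alas2 stood at 29496, 39868 and 47559 CPM in these groups and Ftl1 at 23972, 41668 and 56658 CPM. Slc4a1 went the other way, with 2689, 917 and 315 CPM, and so did Car2 with 5972, 1321 and 170 CPM and Ube2c with 2277, 1407 and 364 CPM. Prdx2 and Rsad2 were also lower at each step, from 8742 to 1844 and from 7339 to 1917 CPM. Bpgm moved less, from 18684 to 13516 CPM. Igkc went from 21081 to 41857 CPM, which is a gene of the free RNA, and the part of free RNA in the other trends was not tested.

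VApcMinL showed the same directions for these genes between its 222 cells of 90% to 95% and 58 cells of 95% to 97%, its single cell above 97% set aside. Alas2 went from 26607 to 37193 CPM, Ftl1 from 20982 to 32869, Slc4a1 from 2580 to 672, Car2 from 3374 to 1973 and Prdx2 from 8500 to 4828 CPM. Ube2c did not follow, with 1142 and 1133 CPM. The cells were grouped by the hemoglobin share that chose them and come from 1 library each, so these trends are descriptions.

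**Figure D4:**
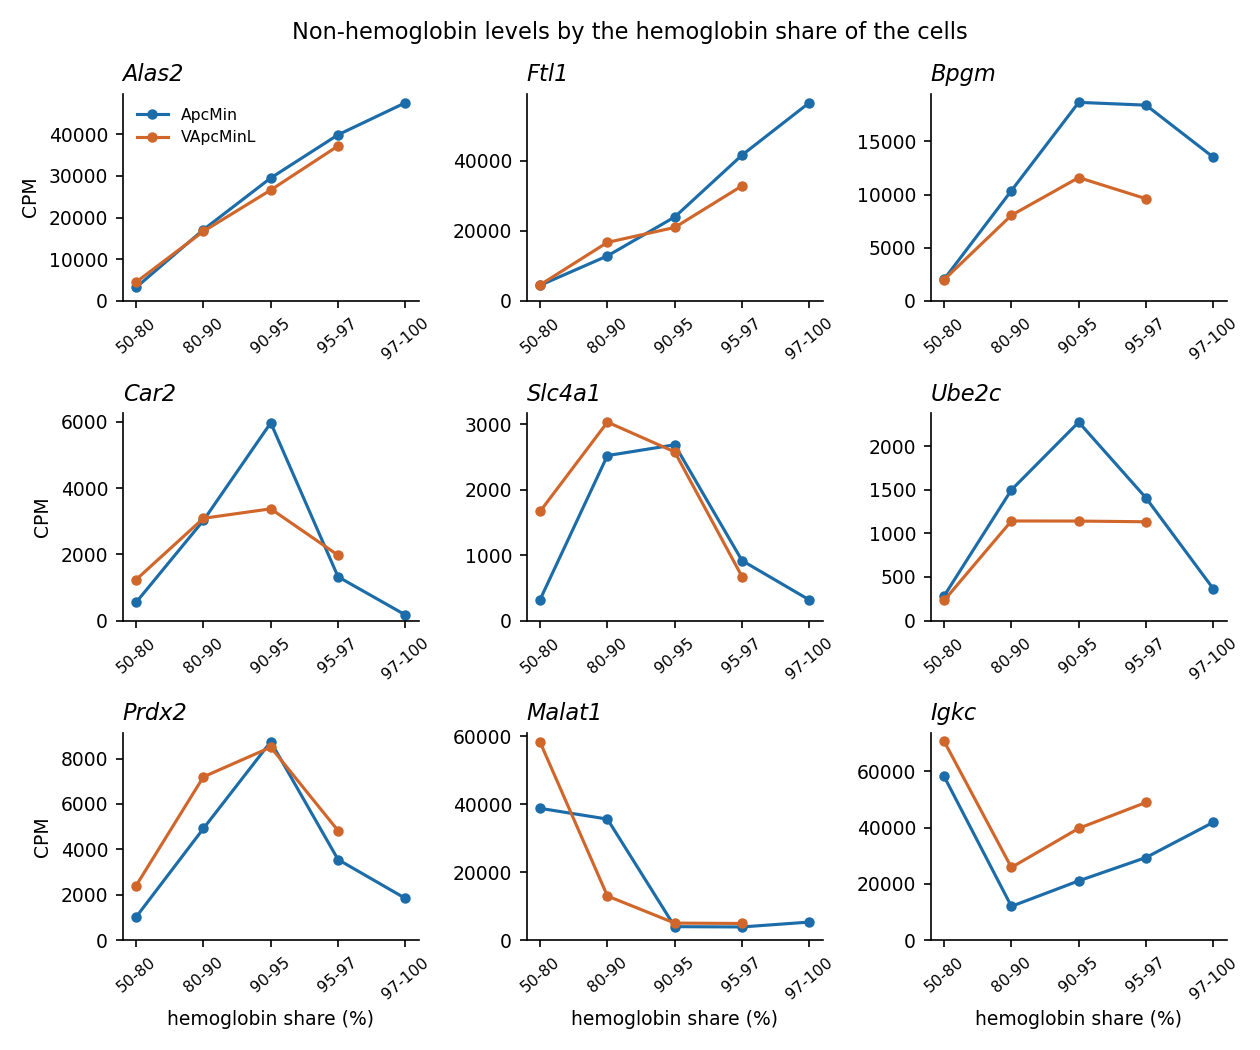
The level in CPM of non-hemoglobin RNA of Alas2, Ftl1, Bpgm, Car2, Slc4a1, Ube2c, Prdx2, Malat1 and Igkc, summed over erythroid cells grouped by hemoglobin share, for the 2 libraries (groups of under 20 cells left out, no error shown). Alas2 and Ftl1 climb with the share, and Car2, Slc4a1 and Prdx2 peak at 80% to 95% and are lower above it. Malat1 is higher below 90% hemoglobin than above it in both libraries. In VApcMinL it is highest below 80%, with 13034 CPM at 80% to 90% and 5057 CPM at 90% to 95%.

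Mitochondrial genes took a median of 2.30% of the non-hemoglobin UMIs in ApcMin cells and 2.33% in VApcMinL cells, against 3.098% and 3.23% in the other barcodes. Over the summed UMIs the order was the other way, with 4.15% and 5.24% in the erythroid cells, 3.48% and 4.998% in the other barcodes and 2.96% and 2.48% in the empty droplets. In the cells of at least 90% hemoglobin the summed shares were 3.61% in ApcMin and 3.25% in VApcMinL. The latter was below the other barcodes of VApcMinL. The selection limit of 20% was set on all UMIs, and of the non-hemoglobin UMIs alone 21 ApcMin and 11 VApcMinL cells exceeded it. Ribosomal protein genes took 10.9% and 13.5% of the summed non-hemoglobin UMIs, beside 8.93% and 12.85% in the empty droplets and 14.95% and 13.8% in the other barcodes.

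As shares of non-hemoglobin RNA, the transferrin receptor and middle enzymes of heme synthesis were higher in VApcMinL, and Alas2, Fech and Bpgm were lower. Of the higher genes, Tfrc, Cpox, Ppox and Alad were under 50 CPM in ApcMin. Of 1627 genes with a mean of at least 50 CPM over the cells of both libraries, 240 or 14.8% were at least 2-fold higher in VApcMinL and 102 or 6.27% at least 2-fold lower. The median ratio over these genes was 1.19, and in the empty droplets 1.22. Of 78 erythroid genes compared, 18 were at least 2-fold higher and 3 at least 2-fold lower, with a median ratio of 1.38, and 11 of the 18 were also at least 2-fold higher among cells of at least 90% hemoglobin. The level filter averages the libraries, so a gene under 50 CPM in ApcMin passes only where VApcMinL is high. This held for 143 of the 240 genes and 9 of the 18 erythroid genes higher in VApcMinL, and 51 of the 102 lower genes were under 50 CPM in VApcMinL. With 1 library each, genotype, animals and preparation cannot be told apart.

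In heme synthesis 5 of 9 genes compared were at least 2-fold higher in VApcMinL, of which Cpox, Ppox and Alad were under 50 CPM in ApcMin and passed the filter only through VApcMinL. Urod was 2.87 times the ApcMin level (interval 2.32 to 3.56), Cpox 2.97 (1.87 to 4.73), Alad 3.58 (1.86 to 6.998) and Ppox 5.91 times. Among cells of at least 90% hemoglobin these ratios were 2.36, 2.77, 3.26 and 3.91. In the empty droplets the VApcMinL level was 1.51 times that of ApcMin for Urod, 2.38 for Cpox and 1.90 for Alad. Alas2 was 0.691 times (0.671 to 0.712), Fech 0.546 times and Slc25a39 0.647 times the ApcMin level. For Alas2 the ratio was 0.798 among cells of at least 90% hemoglobin and 0.358 in the empty droplets. Counted per cell, the mean of Alas2 was 15.06 UMIs in ApcMin and 14.39 in VApcMinL, so the libraries were closer by that measure.

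Tfrc was 11.3 times higher in VApcMinL (7.23 to 18.2), and 8.08 times among cells of at least 90% hemoglobin, beside 3.12 times in the empty droplets. Its level was under 50 CPM in ApcMin, so it passed the filter only through VApcMinL. In the cells of 50% to 80% hemoglobin Tfrc stood at 30.8 CPM in ApcMin and 535 CPM in VApcMinL. Isca1, a gene of iron-sulfur cluster assembly, was lower at 0.362 times, with 1416 UMIs in ApcMin and 191 in VApcMinL. In the membrane list 6 of 18 genes were at least 2-fold higher, 3 of which, Add2, Rhag and Rhd, were under 50 CPM in ApcMin. Of these Rhag and Rhd, parts of the Rh complex, were 3.41 and 4.19 times over all cells but 0.888 and 1.30 times at 90% or more, and Cd36 was 2.01 and 0.694 times. Add2, a skeletal adducin, was 3.65 and 3.22 times, Ank1, ankyrin, 2.12 and 2.06 times, and Stom 3.11 and 1.77 times. Slc4a1 was 1.62 times higher (1.47 to 1.78). At matched hemoglobin shares of 90% to 95% Slc4a1 stood at 2689 CPM in ApcMin and 2580 in VApcMinL, Tfrc at 42.7 and 254, Alas2 at 29496 and 26607, Bpgm at 18684 and 11603 and Rsad2 at 7339 and 3138 CPM.

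Several of the genes furthest apart rested on a few cells. Among the 5 with the largest ratio in VApcMinL were Apod, Tfrc, Cnppd1 and Fabp4. Apod had 118 UMIs there, 112 of them in 1 cell, and Fabp4, a fatty acid binding protein of adipocytes and endothelium, had 480 in 20 cells with up to 180 in 1 cell. Cnppd1 was spread more widely, with 60 UMIs in 40 of 380 cells against 16 UMIs in 14 of 1410 cells, a ratio of 10.1 (5.72 to 18.7). The 5 most lowered were Ccl3, Gdpd3, Cdkn1c, Igkv12-44 and Fut11. Ccl3 had 114 UMIs in ApcMin, 110 in 1 cell, and the immunoglobulin gene Igkv12-44 had 117, of which 114 were in 1 cell, while Cdkn1c had 79 in 13 cells with 39 in 1 of them. Gdpd3, a phospholipase D family gene, had 314 UMIs spread over 129 ApcMin cells and none in VApcMinL. With VApcMinL set at 3 counts over the group its level was 39.0-fold higher in ApcMin, a value that rests on that setting and is not a lower limit. Fut11 had 89 UMIs in 52 ApcMin cells and 4 UMIs in 4 VApcMinL cells, a ratio of 0.121 (0.0322 to 0.320). Rec114, with 603 and 32 UMIs, was 0.142 times the ApcMin level in VApcMinL (0.0965 to 0.203), and 0.173 times in the empty droplets. Among cells of at least 90% hemoglobin Ccl3, Cdkn1c and Igkv12-44 had 3, 5 and 2 UMIs in ApcMin and none in VApcMinL.

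**Figure D5:**
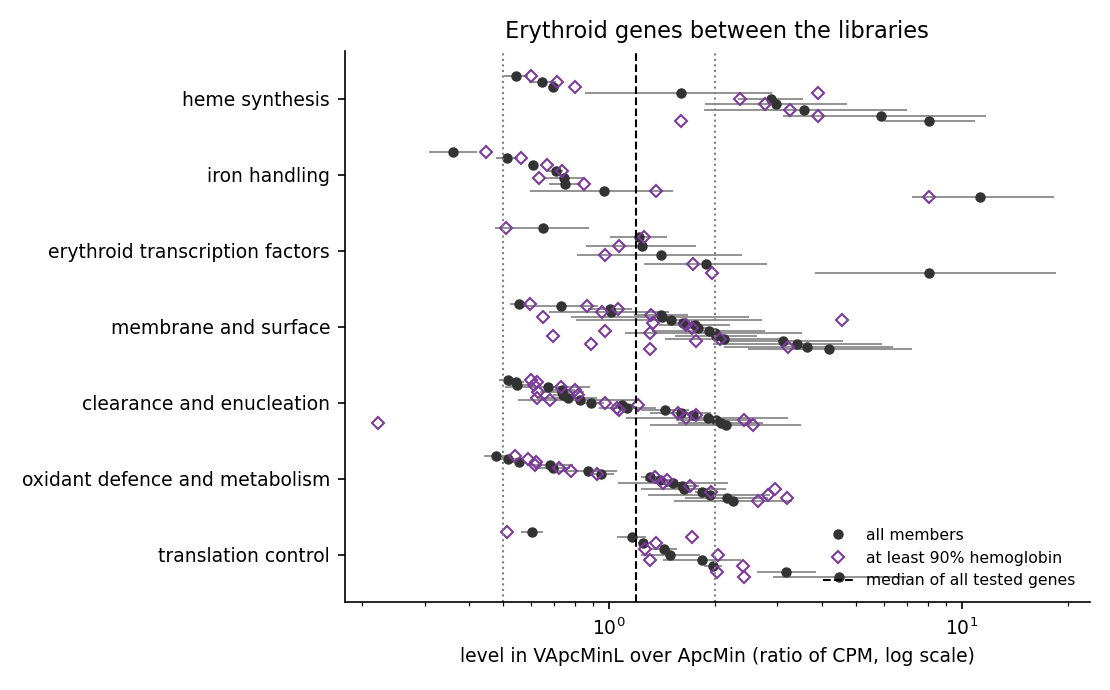
The level of each listed gene in VApcMinL over ApcMin erythroid cells (ratio of CPM, log scale) by gene group, for all cells (dots, with 95% counting intervals as bars) and for cells of at least 90% hemoglobin (diamonds). Heme synthesis genes fall on both sides, with Alas2 at 0.691 and Urod at 2.87, and most clearance and metabolism genes lie between 0.5 and 2.

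Barcodes of at least 50% hemoglobin were also found below the UMI limit, and whether they are the same kind of cell was not tested. From 500 UMIs up to that limit, ApcMin held 149, 194 and 170 barcodes of at least 50% hemoglobin in the ranges from 500, 1000 and 2000 UMIs, and VApcMinL held 83, 103 and 87. Their median hemoglobin share was lower, from 79.0% to 92.5% and from 69.7% to 89.1%, and Igkc stood at 45629 to 66815 CPM and 70519 to 89555 CPM. Alas2 stood at 10179 to 23983 CPM in ApcMin and 7605 to 17882 CPM in VApcMinL, lowest in the range from 500 UMIs. In the range of 3000 to 5000 UMIs Alas2 had 29270 and 18852 CPM. No barcode was shared between the erythroid cells of the libraries, and 18 were shared among all that met the UMI and mitochondrial limits, 2 of them ApcMin and 1 of them VApcMinL erythroid cells.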

How the data were processed

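Single-cell RNA of sorted lamina propria cells was measured in 1 library per genotype. The authors deposited raw UMI counts for 31053 genes and all barcodes. Their processing notes name Cell Ranger 2.1.1, Seurat 3.1.1 and GRCm38 (mm10), while the matrix header gives Cell Ranger version 3.1.0. The libraries held 93203061 (ApcMin) and 101609269 (VApcMinL) UMIs.

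Counts were summed over the erythroid cells of a library and divided by the sum outside the 4 hemoglobin genes. A gene at 0 UMIs was set at 3 counts for ratios. Genes needed a mean of 50 CPM, and a call needed a 2-fold ratio. Shares carry 95% Clopper-Pearson intervals and ratios 95% conditional binomial intervals, which cover counting error only. Cells are not replicates, so no test was run. No doublet caller was run and no cluster was made.

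The cells, gene lists and comparisons were chosen with earlier results of these data known, and the groups by hemoglobin share after the values were seen. Of 224 genes in the lists, 222 were found. Beside list members, the genes named are the 20 with the largest ratio to the empty droplets (the smaller of the libraries), the 10 most abundant, and the 5 largest and 5 smallest ratios between libraries among genes with at least 50 UMIs in the higher library at a level at least 2 times its empty droplets. Genes of the mitochondrial genome, Xist and genes of the Y chromosome were not named by this rule, and some genes that it names are not reported here. Promoter sequences came from RefSeq (GRCm38.p6), where 13 of the 20 genes with the largest ratio to the empty droplets had a promoter window. The alternatives were other hemoglobin, UMI, mitochondrial and level limits, other empty droplets, other cell calling and thinned cells. Scripts were tested on simulated data and ran in Python 3.11.15 with numpy 2.4.6, scipy 1.17.1 and pandas 2.3.3.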

Additional observations from a re-analysis of the deposited data

How the results depend on the processing

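No paired analysis was possible because a single library stood for either genotype. Over all alternatives 51 of the main values stayed within their counting interval, or for counts of genes within 1.5 times, and 69 did not, many of them moving by little beside narrow intervals, and the cause was not tested. The erythroid share was 22.47% in ApcMin at a hemoglobin limit of 30%, and 20.06% and 4.278% (ApcMin and VApcMinL) at 90%, with a ratio of 0.2132. It was 23.75% and 6.817% from 500 UMIs, 23.36% and 6.63% from 1000, 20% and 4.988% from 6000, 20.37% and 4.926% under the order-of-magnitude rule and, with 1% trimmed at each end by detected genes, 4.878% in VApcMinL with a ratio of 0.2339. In every one of these the VApcMinL share was below the ApcMin share. The non-hemoglobin share of UMIs was 5.07% and 7.927% at a limit of 70%, 4.549% and 6.247% at 90%, 6.446% and 10.63% from 1000 UMIs, 6.333% and 9.985% from 6000, 5.824% and 9.985% after thinning, 9.909% in VApcMinL at a mitochondrial limit of 10% and 6.309% in ApcMin with none.

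The erythroid lists took 24.69% and 19.26% of non-hemoglobin UMIs at a hemoglobin limit of 70% (27.39 and 12.16 times the share in empty droplets), 26.89% and 22.2% at 90% (29.83 and 14.02 times), 19.3% and 14.82% from 1000 UMIs (21.41 and 9.359 times), 20.7% and 16.41% from 6000 (22.97 and 10.37 times), and 23.85% and 17.69% without Gm42418 and mitochondrial genes (17.77 and 9.699 times). They took 19.83% and 15% after thinning, 16.09% in VApcMinL at a mitochondrial limit of 10% (10.16 times) and 19.95% in ApcMin with none, and stood at 17.48 and 8.627 times with empty droplets of 10 to 100 UMIs.

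Genes at least 2-fold above the empty droplets numbered 106 at a level filter of 200 CPM and 3117 with none. With no filter, genes at 0 UMIs in the cells were set at 3 counts and could be called above. Gfi1b, with 0 UMIs in both libraries, had ratios of 12.24 in ApcMin and 9.884 in VApcMinL. The 3117 is therefore not a count of genes found in the cells. Genes at or below 0.5 times numbered 417 at a hemoglobin limit of 70%, 569 at 90%, 334 with empty droplets of 10 to 100 UMIs, 300 without Gm42418 and mitochondrial genes, 296 at 20 CPM, 14 at 200 CPM and 1167 with no filter. Genes higher in VApcMinL numbered 679, 46 and 5105 and genes lower 275, 27 and 1067 at 20 CPM, 200 CPM and no filter, and 58 were lower at 90% hemoglobin. The 5105 can also hold genes with no UMI in VApcMinL, set at 3 counts there. Car1, with 4 UMIs in ApcMin and 0 in VApcMinL, had a ratio of 2.013. Of the named genes lower in VApcMinL, the ratio computed above 1 for Igkv12-44 at 70% (2.872) and 90% hemoglobin (5.861) and for Ccl3 (3.907) and Cdkn1c (2.344) at 90%. VApcMinL had no UMI of them there and was set at 3 counts, and at 90% ApcMin had at most 5 UMIs, so no direction can be read from these values. With the other empty droplets Gm42418 and Igkc in VApcMinL stood at 2.017 and 1.652 times them. The depth outside hemoglobin limits what can be read from single cells.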
